A study of Mus musculus with 3 samples.

Results

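Uptake carriers for bile salts, organic anions and organic cations were followed across MF, iHep and PH. The members were all genes whose symbol begins with Slc10a, Slco or Slc22a followed by a digit, which gave 46 of the 20577 named genes measured, read by 53 of 39429 probes. They fell into 7 Slc10a, 14 Slco and 25 Slc22a genes. Another 3 genes of these families, Slc10a4l, Slc22a30 and Slco6b1, had no probe named through the table used. The MF array held fibroblasts cultured from SiO2-remodelled mouse spleen and transduced with LV-NC, a control lentivirus. The iHep array held the same kind of fibroblast given the lentivirus LV-3TF, and both were collected 14 days after transduction. PH were primary mouse hepatocytes, taken fresh as the positive control. All were labelled female. Strain and age, and the factors and promoter of LV-3TF, were not given in the sources used here. Each array carried RNA from a pool of 5 samples, so there was 1 array per group, no replicate error and no test. "Higher" and "lower" below describe these arrays.

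Hepatocytes take solutes from blood through carriers on their sinusoidal membrane. Slc10 carriers move bile salts and sulfated steroids with sodium, Slco carriers (the organic anion transporting polypeptides) exchange bulky anions such as bilirubin conjugates, bile salts and thyroid hormones, and Slc22 carriers move small organic cations, organic anions, urate or carnitine. What enters is metabolised or passed to ATP-driven pumps that export it into bile or back to blood. Slc10a1, Slco1a1, Slco1b2 and Slc22a7 are textbook carriers of rodent liver, whereas Slc22a6, Slc22a8 and Slc22a12 are best known from kidney and Slc10a2 from the ileum.

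A level is the log2 of a probe's signal minus the log2 of the 75th percentile on that array, so level 0 is the percentile itself. It stood at a signal of 544.3 on MF, 3751.5 on iHep and 2080.9 on PH. MF was scanned apart from the other arrays, so for any difference from MF, scan and cell type cannot be told apart. The dimmest probe called well above background had a level of -6.30 on MF, -7.32 on iHep and -6.89 on PH. Where a member was above background on only 1 of 2 arrays the fold is a bound, "at least" N-fold, against the higher of that dimmest level and the member's own reading. The pooled SD of a log2 difference was 0.14 to 0.15 from replicate spots and 0.85 to 1.11 from different probes of a gene. All 6 hepatocyte markers were above background in PH, with a summed signal of 331 times the 75th percentile, against 0.20 in MF and 0.27 in iHep, where Apoa1 was not above background and the other 5 read between -5.72 and -2.99. The fibroblast markers summed to 487 in MF, 45.7 in iHep and 44.4 in PH. All 8 were at least 2-fold lower in iHep than MF. In PH 6 were lower than MF and 2 higher, Dcn by 2.07-fold and Lum by 27.6-fold. The like sums of iHep and PH covered 2 markers higher and 4 lower in iHep. Markers of other cells were also present. All 7 measured macrophage markers were above background in MF and PH (summed signal 80.1 and 92.8), against 4 in iHep (0.90). PH carried all 6 exocrine pancreas markers (339) and all 6 endothelial markers (37.6), against sums below 1 on the other arrays. Of 6 cholangiocyte markers 5 were above background in MF and in iHep, where Epcam was not, and 6 in PH. They summed to 13.3 in MF, 17.0 in iHep and 4.63 in PH. The brightest were Sox9 in MF at 2.72 and Spp1 in iHep at 3.06. The part of these cells in the differences below was not tested, and in such bulk RNA fewer cells of a type and less RNA per cell cannot be told apart.

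PH had 35 of the 46 members above background, iHep 30 and MF 21, which is 76.1%, 65.2% and 45.7% of them, against 84.3%, 79.3% and 72.7% of all named genes. By family, PH, iHep and MF had 6, 5 and 4 of the 7 Slc10a genes above background, 9, 11 and 6 of the 14 Slco genes, and 20, 14 and 11 of the 25 Slc22a genes. The Slco genes were thus read most often in iHep and the others in PH. Among the iHep calls, Slco1a5 (-6.40), Slco1a6 (-6.61) and Slco1b2 (-6.94) lay below the dimmest level called on MF, -6.30. On all 3 arrays 20 members were above background, 43.5% of them against 67.7% of all named genes. In PH and iHep but not MF there were 8 (17.4%, against 8.51%), among them Slc10a2, Slc22a14, Slc22a26, Slco1a1, Slco1a4, Slco1b2 and Slco1c1. In PH alone there were 7 (15.2%, against 5.08%), namely Slc10a5, Slc22a2, Slc22a3, Slc22a7, Slc22a16, Slc22a27 and Slc22a29. Slco1a5 and Slco1a6 were above background in iHep alone (4.35%, against 2.07%) and Slco6c1 in MF alone (2.17%, against 0.991%). The other 8, which were Slc10a4, Slc22a8, Slc22a12, Slc22a19, Slc22a20, Slc22a22, Slco4c1 and Slco6d1, were not above background on any array. They were 17.4% of the members, against 11.6% of all named genes.

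**Figure D1:**
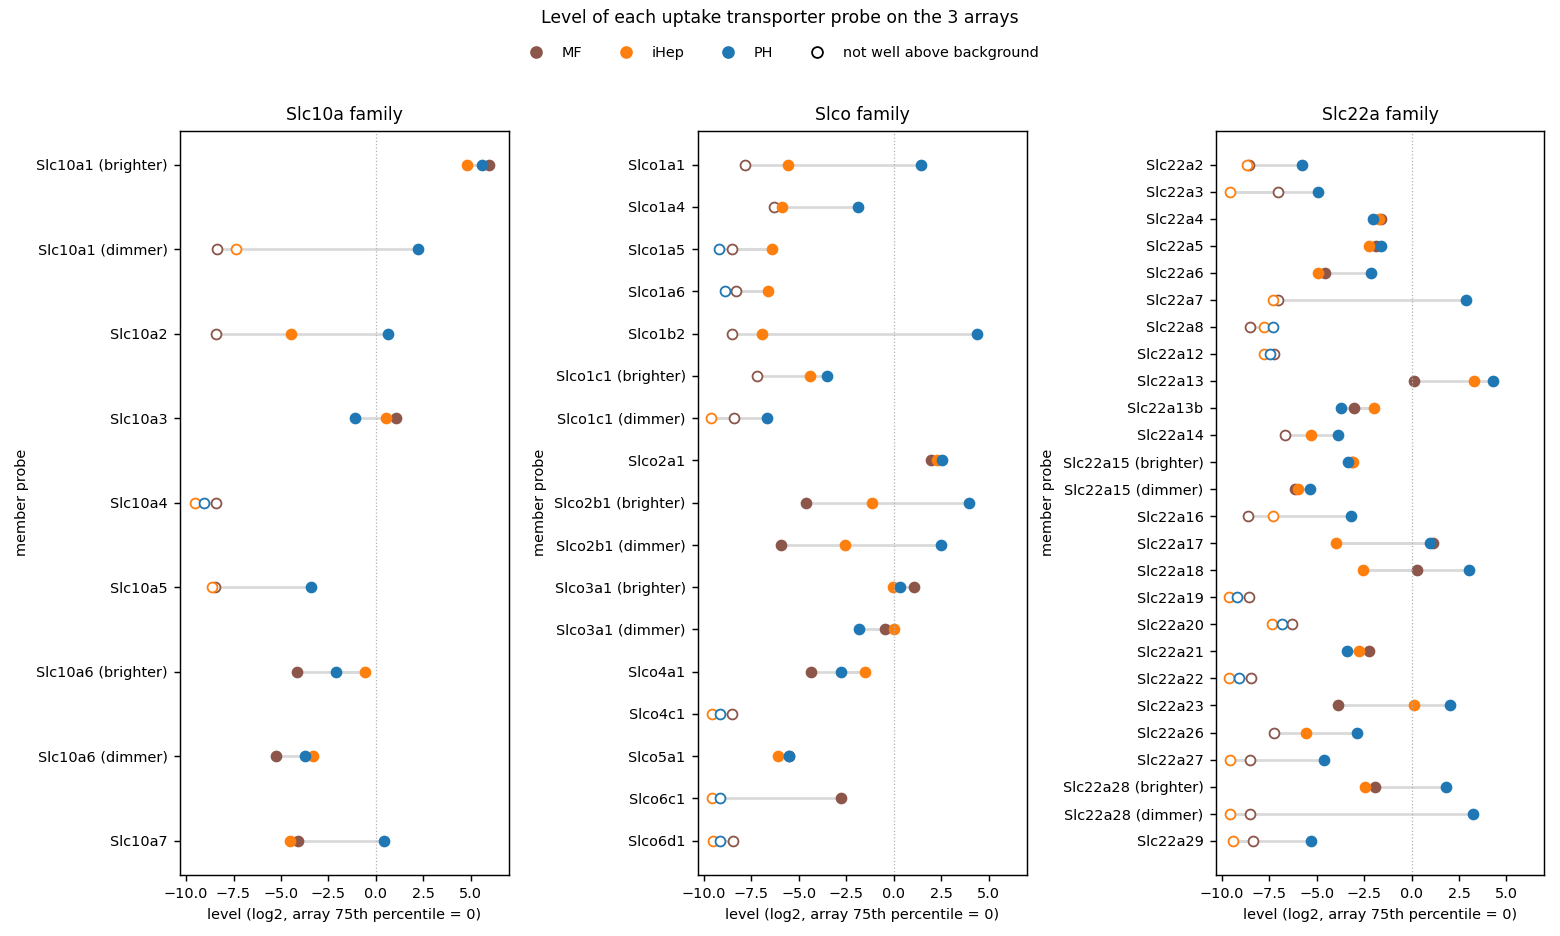
Each row is a member probe and each point its level on 1 array (MF brown, iHep orange, PH blue), in log2 units from the array's 75th percentile, with open points for readings not well above background. Blue points lie far to the right for Slco1b2 (4.41), Slc22a7 (2.88) and the dimmer Slc10a1 probe (2.21), while the brighter Slc10a1 probe reads between 4.79 and 5.99 on all 3 arrays.

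PH over MF set the positive control against the control-virus fibroblasts. Here 22 of the 46 members were at least 2-fold higher and 3 were lower, with 36 comparable. Among all 17766 genes compared, 30.9% were higher and 25.4% lower. At 8-fold 13 members were higher and 1 lower, against 10.8% and 5.46% of all genes. The median difference of the 36 was 2.78 as read and 2.23 with the 16 bounds held, against 0.12 and 0.04 over all genes. The median was 0.28 under normexp background correction and 0.40 over the 20 members above background on all arrays. Normexp moved the median of all genes by -0.63, and keeping only genes above background on all arrays moved it by -0.29. Members above background in PH alone could only be higher, so the count and median describe those that passed the detection call. By family, 4 of 6 comparable Slc10a genes, 6 of 10 Slco genes and 12 of 20 Slc22a genes were higher. The split of 22 to 3 was 12 to 4 under normexp. Among all genes a split of 5484 to 4513 was 3167 to 5018 there.

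In iHep over MF, cells given LV-3TF were compared with fibroblasts given the control virus. There 8 of the 46 members were higher and 5 lower, with 31 comparable, against 19.9% and 23.6% of the 17146 genes compared. At 8-fold 4 members were higher and 2 lower, against 2.68% and 6.89% of all genes. The median of the 31 was 0.42 as read, against 0.09 for all genes, and 0 with bounds held for both. Bounds made up 11 of the 31, and a member above background on only 1 of these arrays could only be higher there. Over the 20 members above background on all arrays, 6 were higher and 4 lower, against 2784 and 3136 of all genes so filtered. The members' median turned to -1.04 under normexp, where 5 members were higher and 8 lower. All genes moved the same way there, by -0.73 in the median, with 2000 higher and 5276 lower. The split of 8 to 5 was 4 to 0 in the authors' deposited table, which holds 30 members and left 18 comparable.

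In iHep over PH, the comparison of the made cells with real hepatocytes, 4 of the 46 members were higher and 22 lower, with 37 comparable, against 23.2% and 36.0% of the 17988 genes compared. At 8-fold 13 members were lower and none was higher, against 13.1% and 4.56% of all genes. The median was -2.70 as read and -1.88 with bounds held, while all genes stood at -0.30. The split of 4 to 22 was 8 to 18 under quantile normalization and 5 to 15 in the authors' deposited table, where 26 were comparable. Among all genes the split was 4181 to 6477. It was 5599 to 4594 under quantile normalization and 4042 to 3205 in that table. By family, 3 of 6 comparable Slc10a genes, 4 of 11 Slco genes and 15 of 20 Slc22a genes were lower. These arrays came from the same scan.

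**Figure D2:**
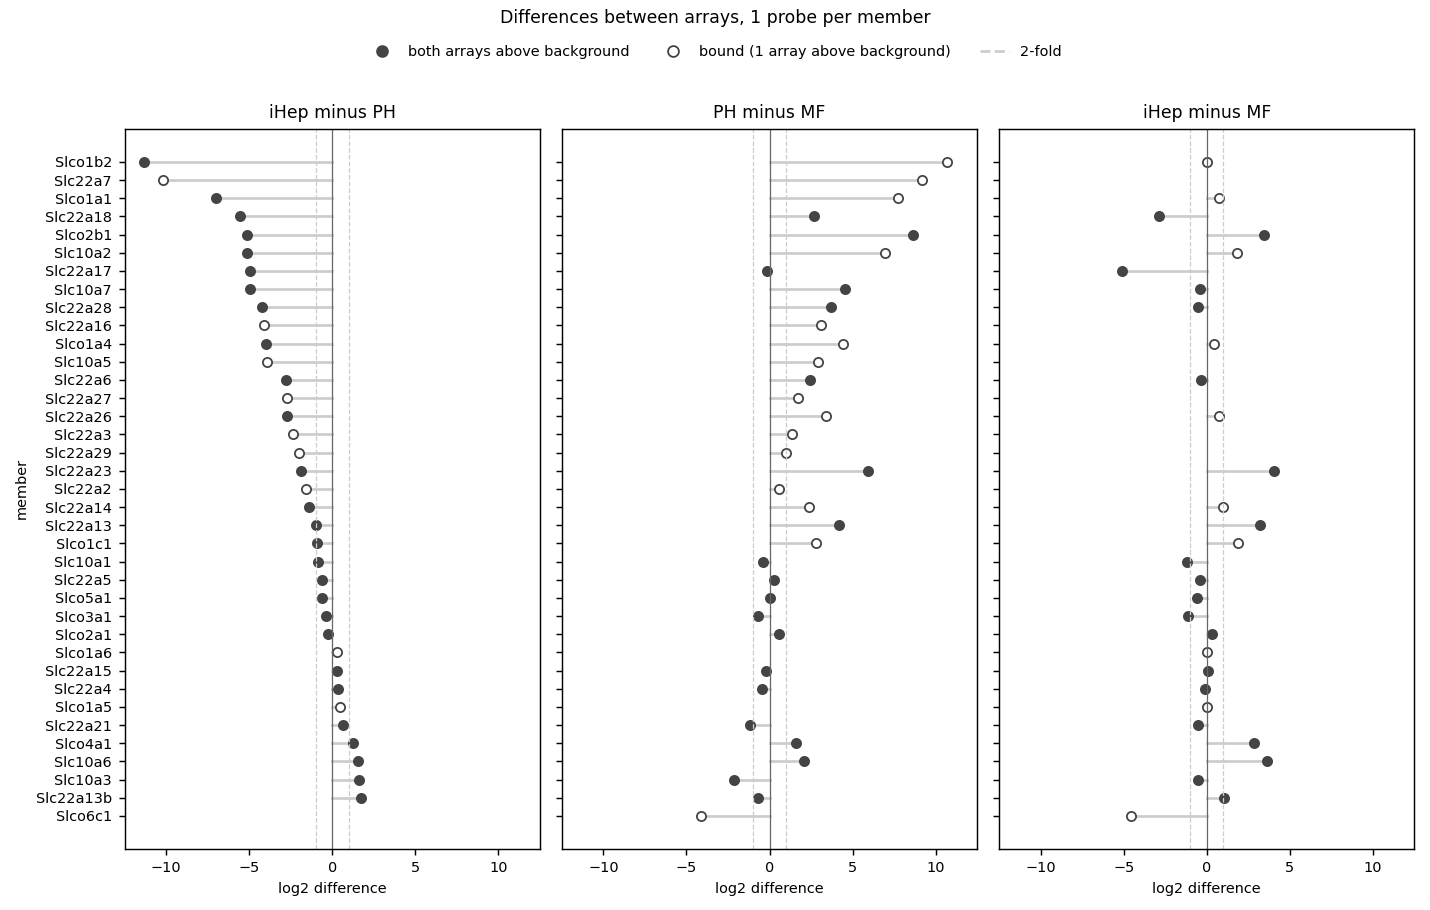
Points give the log2 difference of each comparable member (brightest probe) in iHep minus PH, PH minus MF and iHep minus MF, with open points for bounds and dashed lines at 2-fold. The comparisons share arrays, so the panels show values side by side. Slco1b2 stands at -11.35 in iHep minus PH, and Slc22a17 at -5.12 in iHep minus MF but -0.17 in PH minus MF.

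The sodium-dependent bile salt carrier Slc10a1, the main route of conjugated bile salts into hepatocytes, gave opposite pictures by its 2 probes, which carry the same transcript accession. Probe A_52_P69109 read -8.38 in MF and -7.36 in iHep, neither above background, and 2.21 in PH. By this probe the PH level was at least 364-fold over MF and 739-fold over iHep. Probe A_55_P1954987 read 5.99 in MF, 4.79 in iHep and 5.62 in PH. By that probe PH was 1.29-fold lower than MF and iHep 2.30-fold lower than MF, so fibroblasts read within 2-fold of PH. The iHep difference from MF was -0.15 on the log2 scale under quantile normalization, within 2-fold. The rule of taking the brightest probe selects the second, and every count above uses it. With the first in its place, a choice made after seeing the data, 23 members were higher in PH than MF, 23 were lower in iHep than PH and 4 were lower in iHep than MF. Of the pair, the authors' deposited table lists A_52_P69109, with log2 values of 2.99, 3.87 and 12.80 for MF, iHep and PH. Srsf5, a widely expressed splicing factor, is the neighbouring gene at the 3′ end of Slc10a1 and points towards it on the opposite strand, without overlap in RefSeq. Its own probe read 1.56 in MF, 0.81 in iHep and 1.58 in PH, and any link to the brighter Slc10a1 probe was not tested.

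**Figure D3:**
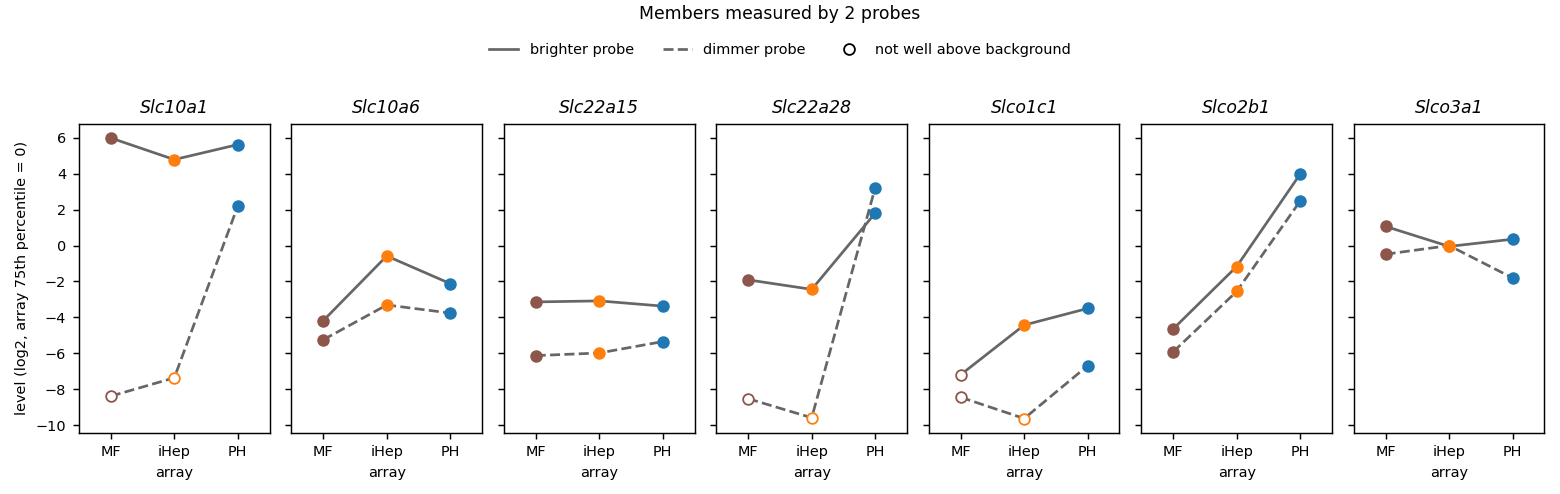
Each panel is 1 of the 7 members with 2 probes, and lines join a probe's levels on MF, iHep and PH (solid for the probe with the higher mean level, dashed for the other), with open points for readings not well above background. For Slc10a1 and Slc22a28 the dashed line runs from background in MF and iHep to 2.21 and 3.22 in PH while the solid line stays above background, whereas the Slco2b1 lines run in parallel.

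Other Slc10 genes divided by direction. Slc10a2, the ileal and biliary bile salt carrier, read -8.41 in MF (not above background), -4.47 in iHep and 0.65 in PH. Its excess over MF was at least 124-fold in PH and 3.55-fold in iHep, and it was 34.9-fold lower in iHep than PH. The log2 excess of PH over MF, 6.95, was 3.91 under normexp, so the 124-fold bound depends on the background correction. The iHep excess over MF was 0 on the log2 scale under normexp, which ends that call. Above background were 2 of 6 intestine markers on MF, 4 on iHep and 3 on PH, with summed signals of 0.07, 1.37 and 2.36. The transcription factor Cdx2 and the peptide carrier Slc15a1 were not above background on any array, while the brightest were the microvillar protein Vil1 in iHep at 0.32 and the fatty acid carrier Fabp2 in PH at 1.19. Slc10a7, a divergent member, stood at -4.12 in MF, -4.52 in iHep and 0.43 in PH, 23.4-fold higher in PH than MF, with iHep within 2-fold of MF. Under normexp its log2 differences from MF were 3.23 in PH and -1.30 in iHep, the latter beyond 2-fold. Normexp moved the iHep minus MF median of all genes by -0.73. Slc10a5, an orphan carrier, was above background in PH alone at -3.40, at least 7.51-fold over MF, a log2 excess of 2.91 that was 0.33 under normexp.

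Slc10a6, which takes up sulfated steroids, was highest in iHep. Its brighter probe read -4.18 in MF, -0.58 in iHep and -2.12 in PH, and the other -5.24, -3.31 and -3.76. Both probes put iHep above MF, by 12.1-fold and 3.83-fold, and PH above MF, by 4.17-fold and 2.80-fold. The brighter probe's log2 excess of PH over MF, 2.06, was 0.82 under normexp. iHep exceeded PH by 2.91-fold on the brighter probe and by 1.37-fold on the other. Slc10a3, another orphan, ran the opposite way to the liver carriers, at 1.04 in MF, 0.52 in iHep and -1.08 in PH, which left PH 4.34-fold lower than MF and iHep 3.04-fold higher than PH.

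Among the Slco genes, the liver carriers were marked out by PH. Slco1b2, the main anion carrier of the mouse hepatocyte sinusoid, read -8.53 in MF (not above background), -6.94 in iHep and 4.41 in PH. PH was at least 1675-fold higher than MF and iHep was 2604-fold lower than PH with both readings above background. Slco1a1, which takes up bile salts and steroid conjugates, read -7.82 in MF (not above background), -5.55 in iHep and 1.45 in PH, an excess of PH over MF of at least 215-fold, and 128-fold lower in iHep than PH. Slco1a4, a related carrier of liver and brain vessels, read -6.32 in MF (not above background), -5.90 in iHep and -1.88 in PH. PH exceeded MF by at least 21.4-fold, and the gene was 16.1-fold lower in iHep than PH. In iHep over MF, Slco1a1 and Slco1a4 had bounds of 1.68-fold and 1.33-fold, under the 2-fold threshold, and none could be formed for Slco1b2, because its iHep reading lay below the lowest readable MF level.

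The windows of 250 bases before the RefSeq start site (GRCm38.p6) are shown, 5′ to 3′, for 6 members. These are the members with an entry whose excess in PH over MF passed 100-fold by at least 1 probe. Normexp values were not used for this choice, and Slc10a2, at a log2 excess of 3.91 there, falls below the cut. Where several starts are listed, the most downstream is shown. Capitals mark matches on either strand to motifs linked with liver factors (CAAAGTCCA for HNF4, AGGTCA for nuclear receptors, TTGCNNAA for C/EBP) or to the TATA box TATAAA.
Slco1b2, chr6:141629268-141629517, plus strand: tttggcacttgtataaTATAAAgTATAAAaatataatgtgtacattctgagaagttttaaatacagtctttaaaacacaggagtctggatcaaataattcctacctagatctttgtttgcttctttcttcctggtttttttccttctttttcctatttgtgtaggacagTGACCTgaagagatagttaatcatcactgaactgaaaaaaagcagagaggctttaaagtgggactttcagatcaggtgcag
Slco1a1, chr6:141946963-141947212, minus strand: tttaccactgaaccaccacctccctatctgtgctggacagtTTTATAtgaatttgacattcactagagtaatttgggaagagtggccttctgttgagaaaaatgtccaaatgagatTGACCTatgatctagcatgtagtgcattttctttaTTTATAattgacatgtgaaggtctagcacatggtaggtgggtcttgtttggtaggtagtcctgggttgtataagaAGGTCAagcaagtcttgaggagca
Slc10a1, chr12:80968080-80968329, minus strand: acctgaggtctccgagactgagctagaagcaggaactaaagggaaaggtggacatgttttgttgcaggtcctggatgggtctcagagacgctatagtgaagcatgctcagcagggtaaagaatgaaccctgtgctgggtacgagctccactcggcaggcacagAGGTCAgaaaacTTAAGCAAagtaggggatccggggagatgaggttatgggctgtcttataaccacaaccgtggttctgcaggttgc
Slc10a2, chr8:5105288-5105537, minus strand: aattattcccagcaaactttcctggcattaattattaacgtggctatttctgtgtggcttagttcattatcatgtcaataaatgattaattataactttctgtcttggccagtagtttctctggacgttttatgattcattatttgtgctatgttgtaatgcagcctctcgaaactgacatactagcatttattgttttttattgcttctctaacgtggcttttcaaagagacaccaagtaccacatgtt
Slco2b1, chr7:99695810-99696059, minus strand: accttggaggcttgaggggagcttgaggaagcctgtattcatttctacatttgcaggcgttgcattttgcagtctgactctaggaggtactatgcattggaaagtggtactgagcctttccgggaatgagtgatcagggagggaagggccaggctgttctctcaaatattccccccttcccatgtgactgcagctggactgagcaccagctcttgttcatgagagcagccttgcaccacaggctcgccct
Slc22a28, chr19:8131983-8132232, minus strand: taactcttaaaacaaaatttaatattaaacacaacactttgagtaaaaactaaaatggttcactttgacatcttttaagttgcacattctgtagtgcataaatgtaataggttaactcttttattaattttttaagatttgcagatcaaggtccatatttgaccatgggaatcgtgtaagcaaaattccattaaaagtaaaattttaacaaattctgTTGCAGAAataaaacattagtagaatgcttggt
The Slco1b2 window holds AGGTCA on the opposite strand from base -81 and TATAAA from -234 and -227. The Slco1a1 window holds AGGTCA from -24 and, on the opposite strand, from -134, with TATAAA on the opposite strand at -209 and -99. The Slc10a1 window, the downstream of 2 starts listed, holds AGGTCA from -87 and TTGCNNAA on the opposite strand from -75, and its other window holds TATAAA on the opposite strand from -128. The Slc22a28 window holds TTGCNNAA from -33. The Slc10a2 window and all 3 windows of Slco2b1 hold none of these motifs. Over all 32851 windows of this length CAAAGTCCA occurs in 0.384%, AGGTCA in 14.0%, TTGCNNAA in 9.56% and TATAAA in 12.4%. Of the 44 windows found for 38 members, 0, 6, 5 and 7 hold them. A match describes letters, not a site in use.

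The Slco1 genes lie in a group on chromosome 6, with Gm5724 and Gm6614 among them, and did not share a pattern. Slco1c1, the thyroxine carrier known from brain vessels, read -7.19 in MF (not above background), -4.42 in iHep and -3.50 in PH by its brighter probe. That put iHep at least 3.68-fold and PH at least 6.99-fold above MF, but the other probe was above background in PH alone, at -6.69, and gave no fold over MF. Under normexp the brighter probe's log2 excess over MF was 0 in iHep and 0.23 in PH, which ends both calls. Slco1a5 and Slco1a6, close relatives of Slco1a1, were above background in iHep alone, at -6.40 and -6.61. Over PH these were bounds of 1.40-fold and 1.21-fold, under the threshold. Slco1a genes are similar in sequence, and how far their probes cross-react was not tested.

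Slco2b1, a carrier of sulfated steroids and drugs in liver and gut, stepped up from MF to iHep to PH. Its brighter probe read -4.64, -1.17 and 3.98 on MF, iHep and PH, and the other -5.92, -2.55 and 2.48. PH exceeded MF by 394-fold and 337-fold, iHep exceeded MF by 11.1-fold and 10.3-fold, and iHep stayed 35.5-fold and 32.7-fold below PH. Both probes therefore gave the same order on all 3 arrays. Slco4a1, a thyroid hormone carrier of many tissues, was instead highest in iHep, at -1.52 against -4.38 in MF and -2.78 in PH, 7.26-fold and 2.40-fold higher. Slco2a1, the prostaglandin carrier, was within 2-fold everywhere, at 1.99 in MF, 2.28 in iHep and 2.54 in PH. Slco5a1 was also within 2-fold, at -5.50, -6.10 and -5.50. The authors' deposited table lists it at 5.48, 4.95 and 4.40 for MF, iHep and PH, where PH was more than 2-fold below MF.

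Slco3a1, a widely expressed prostaglandin and thyroxine carrier, depended on the probe. The brighter probe read 1.07 in MF, -0.05 in iHep and 0.35 in PH, which made iHep 2.16-fold lower than MF. The other, designed on a different transcript, read -0.48, 0.00 and -1.80, which made iHep 1.40-fold higher than MF and 3.49-fold higher than PH. Slco6c1, known from testis, was above background in MF alone at -2.79, so that iHep and PH were at least 23.2-fold and 17.2-fold lower.

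Slc22 cation carriers were also read in PH. Slc22a3, the extraneuronal monoamine carrier, was above background in PH alone at -4.93, at least 2.60-fold over MF. That log2 excess of 1.38 was 0 under normexp and 0.25 under quantile normalization and in the authors' deposited table. Slc22a2, the kidney cation carrier beside it on chromosome 17, was also above background in PH alone at -5.76, with a bound of 1.46-fold over MF.

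The carriers of carnitine and ergothioneine were mixed. Slc22a5, which brings carnitine into cells, read -1.85 in MF, -2.23 in iHep and -1.60 in PH. Slc22a4, the ergothioneine carrier, read -1.63, -1.71 and -2.06. All differences of both were under 2-fold. Slc22a21, which lies between them on chromosome 11, was 2.27-fold lower in PH than MF, at -2.24 in MF, -2.79 in iHep and -3.42 in PH. Slc22a16, a carnitine carrier known from testis, was above background in PH alone at -3.18, at least 8.74-fold over MF and 17.4-fold over iHep. Its log2 excess over MF, 3.13, was 0.54 under normexp. Among 9 genes of carnitine synthesis and use, all comparable, 6 exceeded MF by 2-fold or more in PH and none was lower, against 30.9% and 25.4% of all genes. In iHep over PH 6 were lower and 1 higher, against 36.0% and 23.2%. Bbox1, which makes carnitine, was above background in PH alone at 1.55.

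Among the organic anion carriers of the Slc22 family, Slc22a7 and Slc22a28 were far higher in PH. Slc22a7, the liver anion carrier, read -7.06 in MF and -7.32 in iHep, neither above background, and 2.88 in PH, at least 580-fold higher than MF and 1177-fold higher than iHep. Slc22a28, of a rodent gene cluster on chromosome 19, was read by 2 probes of the same accession. The first read -1.91 in MF, -2.44 in iHep and 1.81 in PH, 13.2-fold higher in PH than MF. The second was above background in PH alone at 3.22, at least 738-fold over MF and 1496-fold over iHep. Its neighbours Slc22a26, Slc22a27 and Slc22a29 read -2.88, -4.62 and -5.32 in PH, none was above background in MF, and in iHep Slc22a26 alone was, at -5.58. PH exceeded MF by at least 10.8-fold, 3.22-fold and 1.97-fold. The log2 excess of Slc22a26, 3.43, was 0.51 under normexp, and that of Slc22a27, 1.69, was 0, so neither call held there. These cluster genes are similar to each other, and how far their probes cross-react was not tested. Slc22a19, at the cluster's end, was not above background on any array.

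Slc22a6, the kidney anion carrier, read -4.59 in MF, -4.92 in iHep and -2.16 in PH, 5.40-fold higher in PH than MF and 6.77-fold higher than in iHep. The log2 excess over MF, 2.43, was 0.89 under normexp, under the threshold. Slc22a8, its neighbour, and the urate exchanger Slc22a12 were not above background on any array. Of 8 kidney proximal tubule markers 6 were above background in MF and 7 each in iHep and PH. These markers summed to 0.67 in MF, 3.61 in iHep and 0.52 in PH. The brightest in iHep was the cadherin Cdh16 at 1.37, and the sodium-lactate carrier Slc5a12 was not above background on any array. Of 7 comparable between iHep and MF, 4 were higher and 2 lower in iHep (19.9% and 23.6% of all genes). The lower ones were Lrp2, by 42.0-fold, and Slc5a2, by 2.73-fold.

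Slc22a13, Slc22a23 and Slc22a14 lay between MF and PH in iHep. Slc22a13, a carrier of nicotinate and urate, read 0.11 in MF, 3.29 in iHep and 4.30 in PH, 9.06-fold higher in iHep and 18.2-fold higher in PH than MF, with iHep 2.01-fold below PH, a gap that was -0.53 on the log2 scale under quantile normalization and so within 2-fold. Slc22a23, an orphan, read -3.90, 0.15 and 2.03 on MF, iHep and PH, 16.5-fold higher in iHep and 60.9-fold higher in PH than MF. Among members above background on both arrays, Slc22a23 had the largest iHep excess over MF, and it stood 3.69-fold below PH. Slc22a14, beside Slc22a13 on chromosome 9, read -5.33 in iHep and -3.90 in PH and was not above background in MF, so that PH was at least 5.29-fold over MF and was 2.68-fold over iHep. Neither call held throughout: PH minus MF was 0 under normexp, and iHep minus PH was -0.40 on the log2 scale under quantile normalization and in the authors' deposited table. Slc22a13b, a gene of the same group, was 2.07-fold higher in iHep than MF and 3.35-fold higher than in PH, at -3.04, -1.99 and -3.73, so that iHep was highest. Its log2 excess over MF, 1.05, was 0.35 under normexp.

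Slc22a17 and Slc22a18 were low in iHep. Slc22a17, the cell-surface receptor for lipocalin-bound iron, read 1.15 in MF, -3.97 in iHep and 0.98 in PH, 34.8-fold lower in iHep than MF and 30.9-fold lower than PH, with MF and PH within 1.12-fold. Slc22a18, an imprinted cation carrier, read 0.30 in MF, -2.55 in iHep and 3.00 in PH, 7.23-fold lower in iHep than MF, 6.50-fold higher in PH than MF, and 47.0-fold lower in iHep than PH. Slc22a15 was within 2-fold by both probes, at -3.14, -3.08 and -3.37 and at -6.12, -5.98 and -5.34 on MF, iHep and PH. The authors' deposited table lists its brighter probe at 7.64, 7.86 and 6.73, where iHep was more than 2-fold above PH.

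The genes that act with these carriers stood as follows. Of 17 bile acid synthesis and conjugation genes, all comparable in PH, 16 exceeded MF by 2-fold or more there and none was lower, against 30.9% and 25.4% of all genes. In iHep over MF 1 of 14 comparable was higher, Acox2, the peroxisomal side-chain oxidase, at 23.0-fold, and 4 were lower, against 19.9% and 23.6%. In iHep over PH 16 of 17 were lower and none higher, against 36.0% and 23.2%. Cyp7a1, which starts the classical pathway, read -6.29 in iHep and -0.40 in PH and was not above background in MF. Baat, which conjugates bile acids to amino acids, was above background in PH alone at 2.52.

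Of 18 export and efflux genes, 17 were comparable between PH and MF, where 12 were higher in PH and 1 lower, against the same 30.9% and 25.4% of all genes. Of 13 comparable between iHep and MF, 5 were higher and 1 lower in iHep (19.9% and 23.6% of all genes). Of 17 comparable between iHep and PH, 2 were higher and 13 lower in iHep (23.2% and 36.0%). Abcb11, the canalicular bile salt pump, read -5.60 in MF, -5.11 in iHep and 5.96 in PH. Abcc4, a basolateral pump that returns bile salts to blood, was highest in iHep at 1.43, against -0.26 in MF and -0.54 in PH. Slc47a1, which passes organic cations into bile, was above background in PH alone at -1.25.

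Of 15 regulators, all comparable in PH, 14 were higher in PH than MF and none lower (30.9% and 25.4% of all genes). In iHep over MF 4 of 14 comparable were higher and 2 lower (19.9% and 23.6%), and in iHep over PH 13 of 15 were lower and none higher (36.0% and 23.2%). The hepatocyte nuclear factor Hnf4a read -5.62 in MF and 1.04 in iHep, 101-fold higher than MF and 31.0-fold lower than PH. Cebpa, a driver of hepatocyte maturation, read -1.56 in MF, -5.76 in iHep and 1.61 in PH. The partner lists were drawn up with earlier results of these data known.

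**Figure D4:**
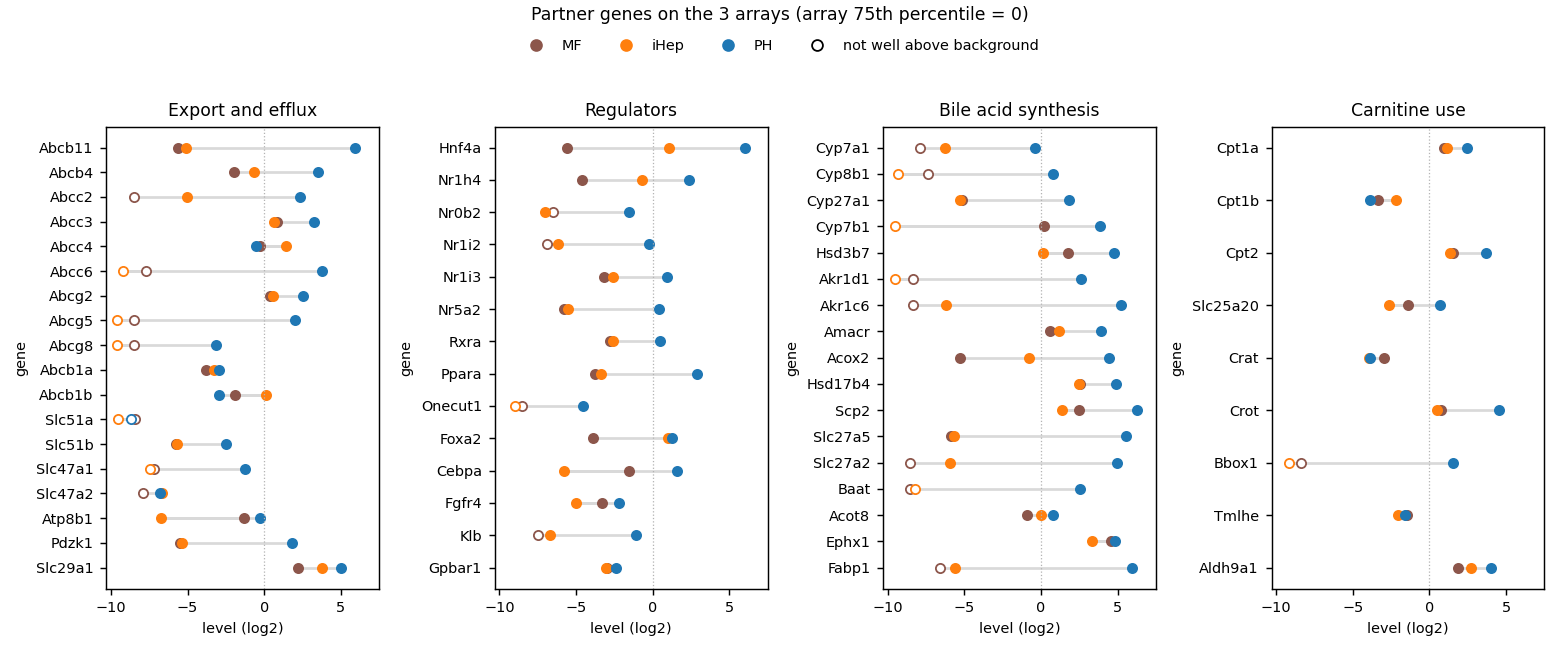
Each row is a gene of the export, regulator, bile acid synthesis or carnitine list and each point its level on 1 array (MF brown, iHep orange, PH blue), in log2 units from the array's 75th percentile, with open points not well above background. Orange points lie near blue ones for Foxa2 (1.02 and 1.29) and far from them for Abcb11 (-5.11 and 5.96).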

How the data were processed

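RNA was hybridised to 1 one-colour (Cy3) array per pool. The labels describe a blood RNA kit with globin reduction. The deposited spot intensity values are linear and, per the file headers, background-subtracted and detrended by Agilent Feature Extraction 11.0.1.1 (9.1 per the submitters' processing notes), with no normalization between arrays. The 0 or 1 flags, another deposited measure, are the software's. The authors' deposited value table holds log2 values with normalization unstated. Its columns correlated with the scanner levels at 0.997, 0.998 and 0.994 for MF, iHep and PH and had medians of 7.03, 7.02 and 7.08.

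Levels were log2 intensity minus the array's 75th percentile. Non-uniform and population outlier spots were left out (190, 230 and 383 of 43020). Saturation was called at 0 spots. Replicates of a probe on an array were averaged. Probes were named through unversioned RefSeq accessions of GRCm38.p6 (27234 of 39429, 69.1%), and 1 probe a gene, the brightest on average, was used. A probe was above background by the software's call in at least 50% of its spots. Members could be named where above background on at least 1 array. Values of 1 member and 1 regulator, which the counts include, are not reported here or drawn. Members and lists were chosen with earlier results of these data known. Calculations used Python 3.11.15 and limma 3.58.1. The levels and the 2-fold call were tested on data simulated from probes above background. That test did not cover bounds, the choice of probe or normexp. Alternatives covered background correction (normexp on median signals), normalization, scaling, the authors' table, probe filters, probe rules and thresholds.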

Additional observations from a re-analysis of the deposited data

How the results depend on the processing

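No paired analysis was possible because each group had 1 array, which also leaves no sample to omit. No member at least 2-fold apart turned its sign under normexp background correction, quantile normalization, rescaling to the commonly detected probes, the authors' table or the mean of a gene's probes. Of the members higher in PH than MF, 12 of 22 stayed at least 2-fold higher under the first 4 of these (a member that the authors' table lacks being judged on the other 3), as did 5 of 8 and 4 of 5 of those higher and lower in iHep than MF, 18 of 22 of those lower in iHep than PH, 3 of 3 of those lower in PH than MF and 4 of 4 of those higher in iHep than PH. The cause of these moves was not tested. How many calls over all genes stayed under the same settings is not given, so these counts cannot be set against the array as a whole. Members higher in PH than MF numbered 12 of 36 comparable under normexp, 14 of 25 in the authors' table and 9 of 20 with only probes above background on all 3 arrays, and those lower 5 at 1.5-fold and 5 under quantile normalization. The PH minus MF median was 0.28 under normexp, 2.44 under quantile normalization, 2.33 in the authors' table, 0.40 with probes above background on all arrays and 1.83 with no filter. Members higher in iHep than MF numbered 5 at 4-fold, 16 of 46 with no filter, 5 of 31 under normexp and 4 of 18 in the authors' table. Those lower numbered 3 at 4-fold, 3 with the mean of probes, 14 with no filter, 8 under normexp and 0 in the authors' table. The median was -1.04 under normexp, -0.22 with no filter, -0.35 with probes above background on all arrays and 0.73 with Slc10a1 read by its dimmer probe, a setting chosen after seeing the data. In iHep minus PH, none was higher at 4-fold (0) and 8 under quantile normalization, and 8 of 20 were lower with probes above background on all arrays. That median was -1.72 under normexp, -1.84 under quantile normalization, -2.44 in the authors' table, -0.62 with probes above background on all arrays and -0.88 with no filter. Normexp moved the median of all genes by -0.73, -0.63 and -0.12 in iHep minus MF, PH minus MF and iHep minus PH, quantile normalization by -0.31 and the authors' table by -0.32 in PH minus MF, and by 0.51 and 0.52 in iHep minus PH.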
